A study of Homo sapiens with 14 samples.

Results

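The 10 genes described here, ATG7, ATG3, ATG5, ATG10, ATG12, ATG16L1, MAP1LC3B, GABARAPL1, SQSTM1 and ULK1, form the core of the autophagy pathway. They were chosen by name, as the rows with these gene symbols in all 14 isoform tables, and are 10 of the 57756 genes in those tables. All 10 passed the filter on low values, with their 132 annotated isoforms summed to a gene level in FPKM (fragments scaled to the length of the transcript and to the mapped fragments of the library). The cells were A549, a human lung carcinoma line, and the study asked how the splicing factor U2AF1 and its cancer mutation S34F change splicing. There were 7 groups of 2 libraries. In the v1 S34F, v1 WT, v3 S34F and v3 WT groups the endogenous U2AF1 was first knocked down by siRNA, and a virus then delivered the v1 or the v3 isoform of U2AF1 with the mutation or as wild type. The knockdown group had the U2AF1 siRNA and an empty vector, the control siRNA group a control siRNA and an empty vector, and the untreated group neither. All comparisons of S34F with WT therefore lie on a knockdown background with a construct far above the natural level, in a single cell line.

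In autophagy a double membrane closes around cell content and carries it to the lysosome. ULK1 is a kinase that starts the process under the control of nutrient sensors. ATG7 is an enzyme of the E1 type that activates the small proteins ATG12 and LC3. ATG10 then passes ATG12 to ATG5, and ATG3 passes LC3 and GABARAP proteins to a membrane lipid, helped by the ATG12, ATG5 and ATG16L1 complex. MAP1LC3B and GABARAPL1 are such lipid-bound proteins, and SQSTM1 (p62) is a receptor that links ubiquitin-marked cargo to them and is itself degraded with it. U2AF1 binds the AG at the 3′ end of introns, and ATG7 is known from work in other cells as a transcript whose 3′ end choice changes with S34F.

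The targeted gene followed the labels, with U2AF1 at 16.2 and 28.9 FPKM in the knockdown libraries, against 116.9 and 118.9 FPKM with the control siRNA. The construct libraries held 2114 to 3852 FPKM of U2AF1. Relative depth ran from 0.814 to 1.22 and the absolute number of reads is unknown, so no counting error was computed for any level. In v1 S34F replicate 2 a single 75-base transcript took 33.1% of the FPKM sum, and this library lay farthest out on the first principal component. Epithelial markers were all present, with 6 of 6 at a mean of at least 1 FPKM. Only 1 of 8 alveolar type II markers (ABCA3) and 1 of 6 fibroblast markers (COL1A1) reached that level, and the surfactant genes SFTPA1 and SFTPA2 stayed below 0.1 FPKM in every library. Values are per library, replicate 1 first, or means ± SD of 2 libraries, and changes are limma estimates on log2(FPKM + 1) with their standard error (SE).

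Per length of transcript, SQSTM1 was the most abundant of the 10 genes in every library, at 393.2 to 644.3 FPKM. By the mean over all libraries ATG12 (43.9 to 64.5 FPKM) and ATG3 (35.3 to 57.1 FPKM) came next, and their ranges overlapped each other and that of GABARAPL1, which lay above both in replicate 1 of v1 S34F and v3 S34F. GABARAPL1 (10.5 to 74.5 FPKM), ATG16L1 (23.4 to 44.4 FPKM), MAP1LC3B (19.6 to 38.1 FPKM), ULK1 (13.5 to 35.5 FPKM) and ATG7 (17.1 to 26.4 FPKM) also overlapped one another. ATG5 (12.1 to 18.2 FPKM) and ATG10 (6.08 to 20.4 FPKM) had the lowest means. In bulk RNA, less transcript in every cell and fewer cells with the transcript cannot be told apart.

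**Figure D1:**
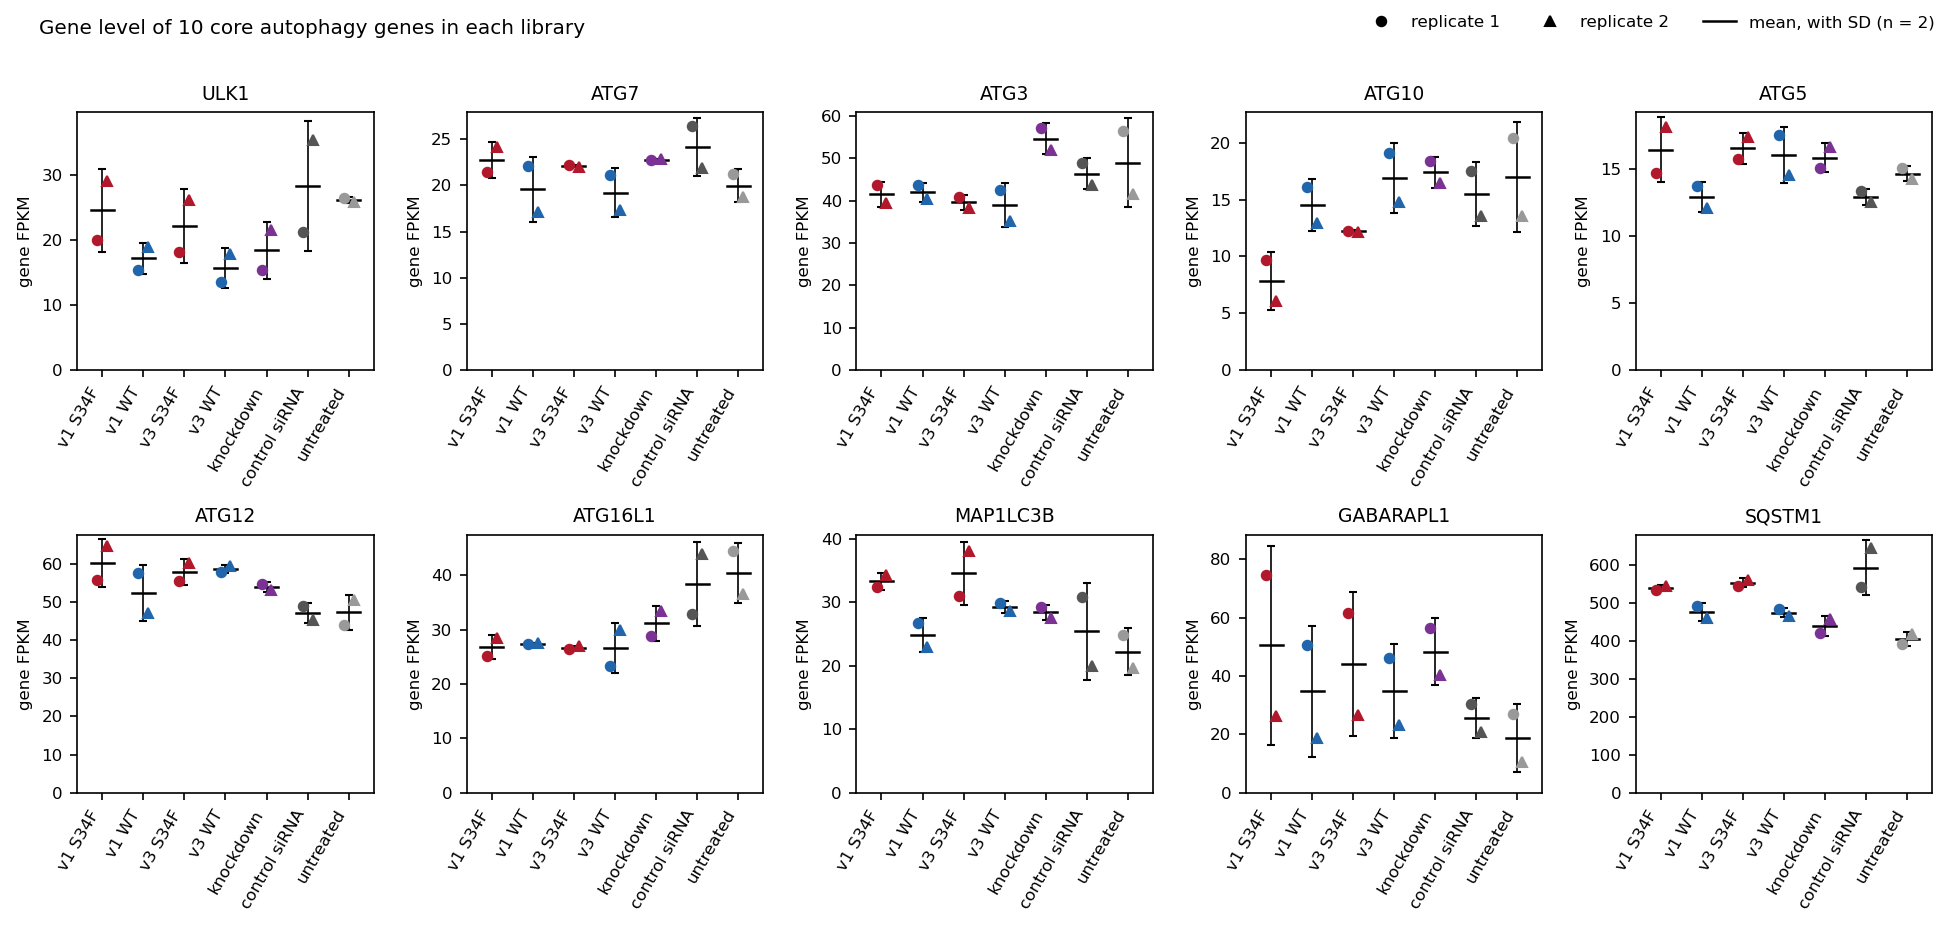
Gene level in FPKM (vertical axis, from 0) of each of the 10 genes in the 7 groups (horizontal axis), with circles for replicate 1, triangles for replicate 2 and lines for the mean and SD of 2 libraries. ATG10 is lowest in v1 S34F (9.65 and 6.08 FPKM), and GABARAPL1 is higher in replicate 1 than in replicate 2 of all 7 groups.

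In the model without a replicate block, none of the 10 genes passed an adjusted p of 0.05 in any comparison of treatments. For S34F against WT, averaged over v1 and v3, 0 of 10 genes were called, where limma called 1.85% of all 14233 genes tested, and 4 of the 10 had an unadjusted p under 0.05 against 2266 of all genes. For the knockdown against the control siRNA 0 of 10 were called against a background of 2.85%, with 1 of 10 and 2689 of all genes at an unadjusted p under 0.05. For WT against the knockdown 0 of 10 were called against 1.43%, with 1 of 10 and 2242 of all genes at an unadjusted p under 0.05. The knockdown libraries enter both of these comparisons.

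Replicates with the same number deviated together in all 7 groups, and the fit with the replicate number as a block called more genes. With the block 2 of 10 genes were called for S34F against WT (background 7.98%), namely ATG10 lower and ULK1 higher with S34F. For the knockdown against the control siRNA 3 of 10 were called with the block (background 11.8%), namely GABARAPL1 higher and SQSTM1 and ULK1 lower in the knockdown. For WT against the knockdown it was 1 of 10 (background 7.52%), ATG3, which was lower with WT.

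**Figure D2:**
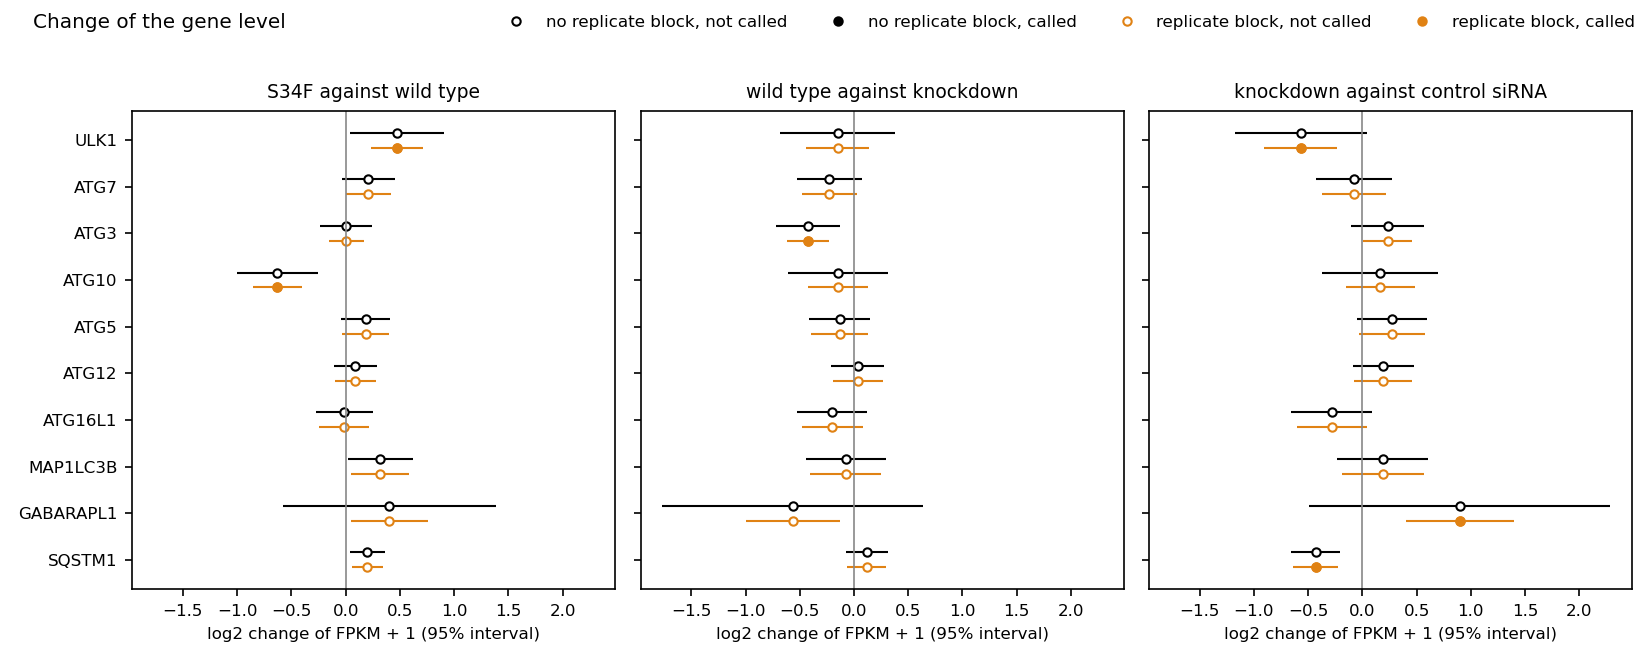
Log2 change of FPKM + 1 with its 95% interval (horizontal axis) for the 10 genes (rows) in 3 comparisons, in black without and in orange with the replicate block, filled where called at an adjusted p under 0.05. No black point is filled, and the filled orange ones are ATG10 (-0.63) and ULK1 (0.47) for S34F against WT, ATG3 (-0.43) for WT against the knockdown, and GABARAPL1 (0.90), SQSTM1 (-0.43) and ULK1 (-0.57) for the knockdown.

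ULK1 (ENSG00000177169, chromosome 12, 132379196 to 132407712, plus strand, GRCh37), the kinase that starts autophagy, was higher with S34F than with WT within each replicate number. It stood at 20.1 and 29.1 FPKM in v1 S34F, against 15.5 and 18.9 FPKM in v1 WT. For v3 it was 18.2 and 26.2 FPKM with S34F, against 13.5 and 17.9 FPKM with WT. The S34F and WT ranges overlapped only between replicates of different numbers. The change was 0.47 on the log2 scale (SE 0.20, adjusted p = 0.269), and with the replicate block the adjusted p was 0.0249. The knockdown libraries held 15.4 and 21.6 FPKM, against 21.3 and 35.5 FPKM with the control siRNA and 26.6 and 25.9 FPKM in untreated cells. For the knockdown against the control siRNA the change was -0.57 (SE 0.28, adjusted p = 0.304), and with the block the adjusted p was 0.0366. In fits with no block, it was -0.92 without control siRNA replicate 1 and -0.21 without control siRNA replicate 2. Replicate 2 was above replicate 1 in 6 of 7 groups.

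ATG7 (ENSG00000197548, chromosome 3, 11313995 to 11599139, plus strand, GRCh37), the E1-type enzyme, kept a narrow range. It stood at 21.4 and 24.2 FPKM in v1 S34F, against 22.1 and 17.1 FPKM in v1 WT. The v3 S34F libraries held 22.2 and 22.0 FPKM, against 21.1 and 17.3 FPKM in v3 WT. The groups overlapped for v1 and did not for v3. The change was 0.21 (95% interval -0.04 to 0.45, adjusted p = 0.409), so a rise of more than 0.45 or a fall of more than 0.04 lay outside the interval. The knockdown had 22.7 and 22.8 FPKM, against 26.4 and 21.9 FPKM with the control siRNA and 21.2 and 18.7 FPKM in untreated cells. The change with the knockdown was -0.08 (95% interval -0.42 to 0.27, adjusted p = 0.851).

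ATG7 has an annotated distal and an annotated proximal 3′ end in the same last exon, and the shares of isoforms with each were estimated. Whether transcripts are cleaved at either end was not tested. The isoform ENST00000354449 (4959 bases) runs 2582 bases beyond ENST00000354956 (2296 bases). The last 30 bases of each, from GENCODE release 29, are shown because they are the ends of isoforms whose share was estimated. They lie at chr3:11557636-11557665 and chr3:11555054-11555083 on the plus strand of GRCh38, with the poly(A) signal AATAAA in capitals where it occurs.
ATG7 distal end: ctgacaaaAATAAActaattctgaaaagaa
ATG7 proximal end: cttggccttggccttgctattgacctggga
The distal sequence holds AATAAA starting 22 bases before its end, and the whole distal transcript holds this motif 3 times and ATTAAA 1 time on the sense strand, the only strand searched. Neither motif occurs in the proximal transcript. The share of all transcripts with these motifs was not computed.

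The estimated share of the isoform with the distal end did not separate S34F from WT. As a percent of the FPKM of the 3 isoforms that reach the last exon, it was 27.9 and 35.1% in v1 S34F, against 24.3 and 38.0% in v1 WT. The v3 S34F libraries had 27.9 and 29.4%, against 23.6 and 35.9% in v3 WT. The S34F values lay inside the range of the WT values. The knockdown stood at 22.0 and 24.4%, against 25.8 and 27.1% with the control siRNA and 24.8 and 34.1% in untreated cells. The higher knockdown value of 24.4% lay just below the lowest value of the controls, 24.8%, and this share was not tested. For the knockdown against the control siRNA 0 of 31 ends of the genes were called, where 15 of 31067 were. The smallest adjusted p of limma among the 31 was 0.509. For S34F against WT, the distal end as a percent of the FPKM of all matched ATG7 isoforms differed by -1.77 points (95% interval -6.38 to 2.83, adjusted p = 0.871), and 0 of 31 ends of 9 of the genes were called, where 0.235% of 31067 ends were. An increase of the share of the distal isoform by more than 2.83 points thus lay outside the interval. The isoforms also differ in inner exons, as ENST00000354956 lacks an 81-base exon and ENST00000446450 lacks exons of 117 and 123 bases. These shares of whole isoforms thus mix exon skipping with the choice of the end. The 3 isoforms together were at 9.47 ± 1.38 FPKM in v1 S34F, against 9.13 ± 2.16 FPKM in v1 WT, and at 9.89 ± 1.23 FPKM in v3 S34F, against 10.01 ± 2.88 FPKM in v3 WT, a log2 difference of 0.03 that was not tested, and lower than the 0.21 of the whole gene. Of the 2582 extra bases of the distal isoform 1596 overlap exons of VGLL4 on the opposite strand (mean 12.1 FPKM), and the protocol does not say whether strand was kept.

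**Figure D3:**
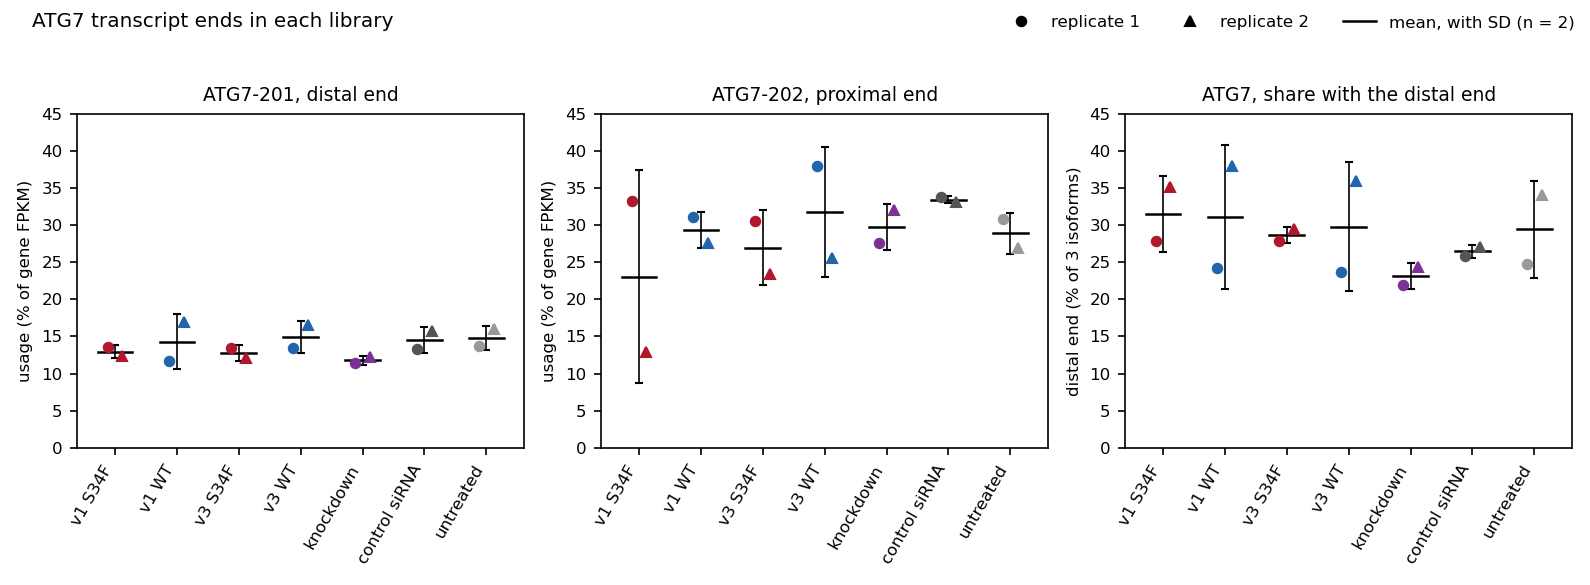
Usage of the ATG7 isoforms with the distal and the proximal end as a percent of the gene's FPKM, and the distal end as a percent of the 3 isoforms that reach the last exon (vertical axes), in the 7 groups, with both replicates and the mean and SD. The distal share is 27.9 to 35.1% in the 4 S34F libraries and 23.6 to 38.0% in the 4 WT libraries.

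Among ATG7 isoforms, the largest shifts were at the 5′ end and in scarce transcripts. ENST00000444619, which skips a 109-base exon (chromosome 3, 11280994 to 11281102, GRCh38) upstream of the start codon, was listed at 0.00 FPKM in both v1 WT libraries, where the authors' upper bound was 0.30 FPKM. It was 0.33 and 0.38 FPKM in v3 WT, and 2.91 and 2.11 FPKM in the knockdown, so the WT and knockdown estimates did not overlap. The authors' bounds overlapped in part. Upper bounds were 0.99 and 1.07 FPKM in v3 WT, and lower bounds 1.19 and 0.87 FPKM in the knockdown. Its usage differed by -10.1 points between WT and the knockdown (SE 2.19, adjusted p = 0.119). The partner with the exon, ENST00000435760, was at 0.25 to 2.43 FPKM over all libraries.

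Inclusion of that exon, as the with-exon share of both isoforms in percent, varied more across treatments than any other feature of ATG7. It was 99.999 and 24.8% in v1 S34F, against 100% in both libraries of v1 WT. Inclusion in v3 S34F was 34.01 and 34.6%, against 87.8 and 79.5% in v3 WT. The knockdown had 32.2 and 15.3%, against 56.3 and 49.7% with the control siRNA and 54.1 and 41.2% in untreated cells. Of the S34F libraries 3 lay near the knockdown and v1 S34F replicate 1 lay with WT. The difference of S34F from WT was -43.5 points (SE 13.6, adjusted p = 0.136). Without v1 S34F replicate 1 it was -62.3 points, and without v1 S34F replicate 2 -24.7 points. WT differed from the knockdown by 68.1 points (SE 16.6, adjusted p = 0.0910), and by 59.6 to 76.6 points when 1 library was left out. The sum behind these percents was only 0.73 to 4.30 FPKM, and a value at or near 100% means that the isoform without the exon was listed at or near 0.

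A second exon of ATG7, 81 bases long and coding, separates the 2 long isoforms in their middle. It is shown with 10 lower-case bases of each neighbouring exon because it is what the proximal isoform lacks (exon at chr3:11379972-11380052, plus strand, GRCh38, exon in capitals).
ATG7 81-base exon: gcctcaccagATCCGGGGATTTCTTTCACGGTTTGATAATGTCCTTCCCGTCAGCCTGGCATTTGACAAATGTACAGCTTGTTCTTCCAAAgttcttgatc
Its length is a multiple of 3. The with-exon side summed ENST00000354449 and the shorter ENST00000414717, ENST00000427759 and ENST00000446110, and the side without was ENST00000354956 alone. Of the shorter ones, ENST00000427759 was at 0.00035 and 4.54 FPKM in the knockdown libraries. Inclusion was 51.4 and 73.5% in v1 S34F, against 52.9 and 56.5% in v1 WT. In v3 S34F the exon was included at 44.7 and 59.1%, against 38.1 and 58.7% in v3 WT. The ranges overlapped, and the difference was 5.66 points (95% interval -11.8 to 23.1, adjusted p = 0.785).

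The 5 genes whose levels were most like that of ATG7 were ITGAV, CEP41, ATG9A, ZBTB14 and TMEM66, with a Pearson correlation of log2(FPKM + 1) over the 14 libraries of 0.888, 0.852, 0.840, 0.798 and 0.784. ITGAV is an integrin subunit, and ATG9A is the membrane protein of the vesicles that seed autophagosomes. These correlations are descriptions of libraries that share groups, and carry no test.

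ATG3 (ENSG00000144848, chromosome 3, 112251356 to 112280893, minus strand, GRCh37), the enzyme that attaches LC3 to lipid, had the smallest p of the 10 genes for WT against the knockdown. It stood at 43.6 and 40.3 FPKM in v1 WT and 42.6 and 35.3 FPKM in v3 WT, against 57.1 and 52.0 FPKM in the knockdown. Every WT library lay below both knockdown libraries. The change was -0.43 (SE 0.13, adjusted p = 0.155), and with the block the adjusted p was 0.0189. Exons of SLC35A5 (mean 17.7 FPKM) on the opposite strand overlap 151 bases of ATG3. The S34F libraries held 43.6, 39.3, 40.8 and 38.3 FPKM and differed from WT by 0.01 (95% interval -0.23 to 0.24). The libraries of the controls had 49.0 and 43.7 FPKM with the control siRNA and 56.4 and 41.5 FPKM without treatment, a range that overlaps the knockdown.

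ATG10 (ENSG00000152348, chromosome 5, 81267844 to 81572676, plus strand, GRCh37), the E2-type enzyme that joins ATG12 to ATG5, showed the lowest S34F levels relative to WT among the 10 genes. It was at 9.65 and 6.08 FPKM in v1 S34F, against 16.1 and 12.9 FPKM in v1 WT. Levels in v3 S34F were 12.3 and 12.2 FPKM, against 19.1 and 14.8 FPKM in v3 WT. All 4 S34F libraries lay below all 4 WT libraries. The knockdown held 18.4 and 16.4 FPKM, against 17.5 and 13.5 FPKM with the control siRNA and 20.4 and 13.6 FPKM in untreated cells, so the S34F libraries lay below these too.

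For S34F against WT the change of ATG10 was -0.63 (SE 0.17, 95% interval -1.01 to -0.25), with an adjusted p of 0.0966 without the block and 0.00545 with it. Without v1 S34F replicate 1 it was -0.78. Without v1 S34F replicate 2, the library that stood apart and held the lowest ATG10 value, it was -0.48. Both fits had no block and left v1 S34F with 1 library, while ATG10 was lower in replicate 2 of all 7 groups. They thus mix the S34F difference with that between replicate numbers. In v1 alone the change was -0.83 (SE 0.24, adjusted p = 0.261, and 0.0200 with the block), where 0 of 10 genes were called in a background of 0.176%, or 1 of 10 with the block in a background of 2.17%. In v3 alone it was -0.43 (SE 0.24, adjusted p = 0.875), where 0 of 10 were called in a background of 0.0211%. The test of the difference between v3 and v1 gave 0.40 (SE 0.34, adjusted p = 1), with 0 of 10 genes called in a background of 0%. At an unadjusted p under 0.05 there were 1 of 10 and 1413 of all genes in v1, 0 of 10 and 917 in v3, and 0 of 10 and 101 for the difference.

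ATG10 has 3 isoforms with a mean usage of at least 10%. The coding ENST00000513634 made up 25.7 to 36.3% of the gene in the S34F libraries, against 35.0 to 49.1% in the WT libraries, and the coding ENST00000458350 14.4 to 23.5%, against 23.2 to 26.0%. The noncoding ENST00000514253 made up 26.5 to 34.2% with S34F, against 18.3 to 22.9% with WT, without overlap, a difference of 8.42 points (SE 2.99, adjusted p = 0.284). Of the 713 bases of its last exon, 374 overlap exons of RPS23 on the opposite strand, a ribosomal protein gene at a mean of 1254 FPKM. Without this isoform ATG10 was 5.50 ± 2.13 FPKM in v1 S34F, against 11.7 ± 1.70 FPKM in v1 WT, and 8.96 ± 0.013 FPKM in v3 S34F, against 13.3 ± 2.71 FPKM in v3 WT. The change without it was -0.76 on the log2 scale.

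ATG12 (ENSG00000145782, chromosome 5, 115163893 to 115177555, minus strand, GRCh37), the small protein joined to ATG5, was at 55.8, 64.5, 55.3 and 60.3 FPKM in the S34F libraries, against 57.4, 47.2, 57.9 and 59.3 FPKM with WT. The groups overlapped, with a change of 0.09 (95% interval -0.11 to 0.29). A retained-intron isoform, ENST00000511984, took 31.3 to 59.2% of its FPKM, so a large share of the gene level is not from coding transcripts. Exons of AP3S1 (mean 78.7 FPKM) on the opposite strand overlap 378 of its bases. The other isoforms of at least 10% mean usage were ENST00000274459 (0.18 to 20.7%) and the coding ENST00000500945 (5.41 to 17.7%).

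ATG5 (ENSG00000057663, chromosome 6, 106632351 to 106773666, minus strand, GRCh37), the acceptor of ATG12, was at 14.7 and 18.2 FPKM in v1 S34F, against 13.7 and 12.1 FPKM in v1 WT. In v3 S34F it was 15.8 and 17.4 FPKM, against 17.6 and 14.6 FPKM in v3 WT. The ranges separated for v1 and overlapped for v3, and the change was 0.18 (95% interval -0.05 to 0.41, adjusted p = 0.441). Its isoform ENST00000369070 skips a 128-base exon, whose length is not a multiple of 3, and is annotated as a target of nonsense-mediated decay. That exon is shown with 10 lower-case bases of each neighbour because its loss is the main alternative form of ATG5 here (chr6:106308364-106308491, minus strand, GRCh38).
ATG5 128-base exon: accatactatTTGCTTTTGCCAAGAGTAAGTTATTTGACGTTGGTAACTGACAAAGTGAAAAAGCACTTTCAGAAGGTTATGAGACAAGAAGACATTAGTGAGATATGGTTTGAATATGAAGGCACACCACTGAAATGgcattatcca
It was included in 79.9 and 76.3% of the spanning FPKM in v1 S34F, against 83.8 and 85.7% in v1 WT. In v3 S34F inclusion was 74.0 and 61.2%, against 80.5 and 61.6% in v3 WT. The ranges over both constructs overlapped, and the difference was -5.07 points (95% interval -16.0 to 5.82, adjusted p = 0.665).

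ATG16L1 (ENSG00000085978, chromosome 2, 234118697 to 234204320, plus strand, GRCh37), which brings the ATG12 and ATG5 conjugate to the membrane, overlapped between S34F and WT. It was at 25.2, 28.4, 26.4 and 26.9 FPKM in the S34F libraries, against 27.3, 27.5, 23.4 and 29.9 FPKM with WT, a change of -0.01 (95% interval -0.28 to 0.25). The knockdown held 28.9 and 33.4 FPKM, against 32.9 and 43.9 FPKM with the control siRNA and 44.4 and 36.5 FPKM in untreated cells. All 4 control and untreated libraries thus lay above all 8 construct libraries, a pooled comparison that was not tested. For the knockdown against the control siRNA the change was -0.28 (SE 0.17, adjusted p = 0.410). A 57-base coding exon separates the alpha form of the protein, without it, from the beta form. It is shown first with 10 lower-case bases of each neighbouring exon (exon at chr2:233273721-233273777, plus strand, GRCh38), then as the last 20 bases of the intron before it and its first 10 bases (chr2:233273701-233273730), with the last 3 intron bases in capitals.
ATG16L1 57-base exon: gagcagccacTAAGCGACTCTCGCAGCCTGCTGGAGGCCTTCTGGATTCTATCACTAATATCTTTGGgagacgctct
ATG16L1 3′ splice site: tatcctcccctcctcttTAGtaagcgactc
The intron ends in TAG, and the exon's length is a multiple of 3. From other cells it is known that exons whose 3′ splice site has T before the AG are often included less with U2AF1 S34F. That background is not a test of this exon.

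Inclusion of the ATG16L1 exon, over 4 isoforms with and 4 without it, was lower with S34F than with WT in every library. It was 35.9 and 23.9% in v1 S34F, against 52.7 and 42.9% in v1 WT. In v3 S34F it was 35.7 and 26.0%, against 48.6 and 41.8% in v3 WT. The highest S34F value thus lay below the lowest WT value. The knockdown had 28.95 and 27.2%, against 59.6 and 45.5% with the control siRNA and 54.3 and 45.5% in untreated cells. The knockdown and S34F libraries overlapped, as did the WT libraries and the controls.

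None of these differences passed the test over all 11407 cassette exons. S34F differed from WT by -16.1 points (SE 5.49, 95% interval -28.5 to -3.68, adjusted p = 0.169, or 0.0621 with the block), and by -13.1 points (adjusted p = 0.389) without v1 S34F replicate 2. The knockdown differed from the control siRNA by -24.4 points (SE 7.77, adjusted p = 0.218), and WT from the knockdown by 18.4 points (SE 6.73, adjusted p = 0.240). These are counts of exons with their flanks, so an exon with different flanks, or in a shorter form, counts again. Of the 16 such entries in 6 of the 10 genes 0 were called for S34F against WT, where 2.68% of all entries were. For the knockdown it was 0, where 0.736% were, and for WT against the knockdown 0, where 1.33% were. At an unadjusted p under 0.05 limma had 2, 2 and 3 of the 16, and 1988, 1419 and 1640 of all entries. Among single isoforms, ENST00000392017, 1 of the 4 with the exon, was at 0.019 and 5.71% of the gene in the knockdown. With the control siRNA it was at 41.5 and 17.7%. Inclusion over all 8 isoforms in the same knockdown libraries was 28.95 and 27.2%. ENST00000392020, 1 of the 4 without the exon, was at 52.9 and 59.7% in the knockdown, against 37.4 and 39.2%. The usage of these 2 isoforms differed by -26.7 points (SE 7.49, adjusted p = 0.253) and 18.0 points (SE 5.75, adjusted p = 0.316). The first was -14.8 points without control siRNA replicate 1 and -38.6 points without control siRNA replicate 2.

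**Figure D4:**
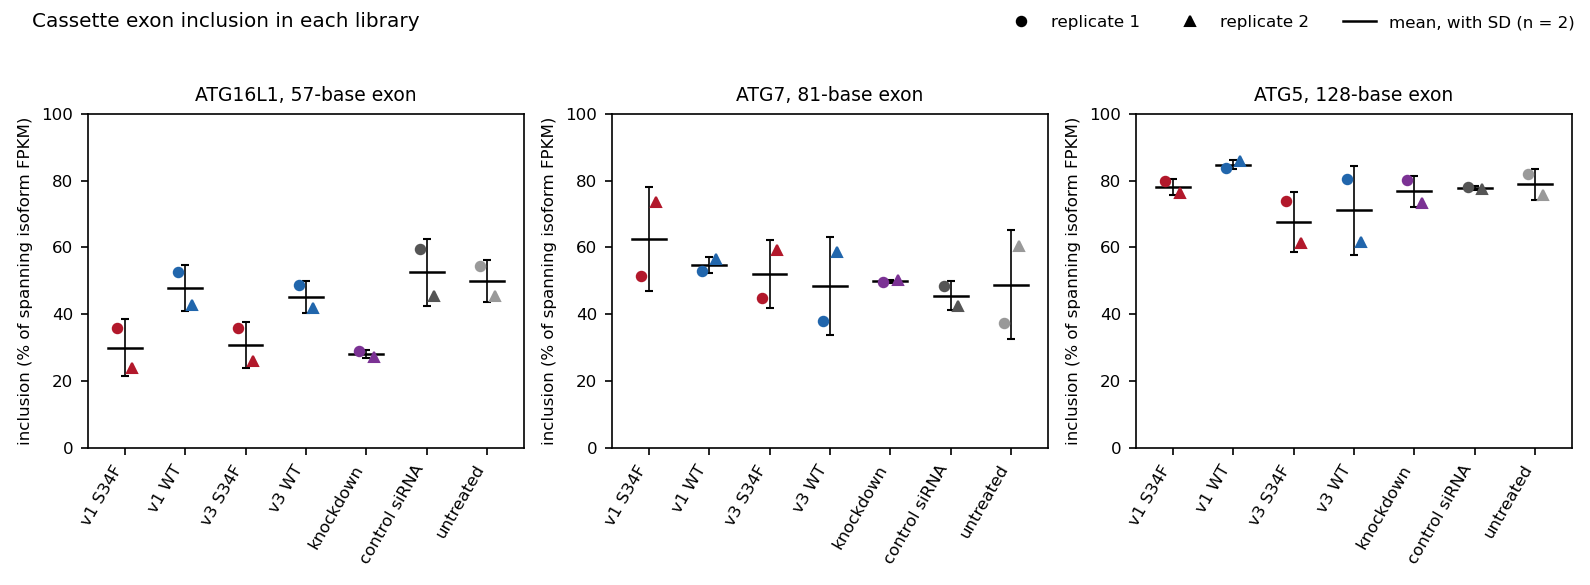
Inclusion of a cassette exon in ATG16L1, ATG7 and ATG5 as a percent of the FPKM of the isoforms that span it (vertical axis, 0 to 100), in the 7 groups, with both replicates and the mean and SD. For ATG16L1 the 4 S34F libraries lie at 23.9 to 35.9% and the 4 WT libraries at 41.8 to 52.7%, while for ATG7 and ATG5 the S34F and WT points overlap.

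MAP1LC3B (ENSG00000140941, chromosome 16, 87417601 to 87438385, plus strand, GRCh37), which encodes LC3B, was at 32.4 and 34.3 FPKM in v1 S34F, against 26.7 and 23.0 FPKM in v1 WT. In v3 S34F it was 31.1 and 38.1 FPKM, against 29.9 and 28.7 FPKM in v3 WT. All S34F libraries lay above all WT libraries. The change was 0.32 (SE 0.14, adjusted p = 0.279, or 0.133 with the block). The knockdown held 29.3 and 27.6 FPKM, between the control siRNA libraries at 30.8 and 20.05 FPKM. Reads of its near-identical copy MAP1LC3B2, listed at 1.28 to 3.04 FPKM, could have been split between the genes. Exons of FBXO31 on the opposite strand overlap 150 bases of MAP1LC3B.

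GABARAPL1 (ENSG00000139112, chromosome 12, 10365057 to 10375727, plus strand, GRCh37), a second lipid-bound protein of this kind, was set apart by its replicates. In replicate 1 it stood at 74.5 FPKM in v1 S34F, against 50.6 FPKM in v1 WT, at 61.5 FPKM in v3 S34F, against 46.1 FPKM in v3 WT, and at 56.4 FPKM in the knockdown, against 30.3 FPKM with the control siRNA and 27.0 FPKM in untreated cells. In replicate 2 it stood at 26.4 FPKM in v1 S34F, against 18.8 FPKM in v1 WT, at 26.7 FPKM in v3 S34F, against 23.3 FPKM in v3 WT, and at 40.4 FPKM in the knockdown, against 20.8 FPKM with the control siRNA and 10.5 FPKM in untreated cells. Within each replicate number the S34F library was above its WT library and the knockdown above the control siRNA. For the knockdown against the control siRNA its change was 0.90 (SE 0.63, adjusted p = 0.491), and with the block the adjusted p was 0.0293. For S34F against WT the change was 0.40 (SE 0.44, adjusted p = 0.730, or 0.149 with the block). It was 0.038 without v1 S34F replicate 1 and 0.77 without v1 S34F replicate 2. Both of these fits had no block and thus mix the S34F difference with that between replicate numbers.

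SQSTM1 (ENSG00000161011, chromosome 5, 179233388 to 179265078, plus strand, GRCh37), the cargo receptor p62, was higher in every S34F library than in every WT library. It stood at 533.5 and 545.6 FPKM in v1 S34F, against 492.4 and 459.4 FPKM in v1 WT. The v3 S34F libraries stood at 545.5 and 561.7 FPKM, against 483.3 and 466.2 FPKM in v3 WT. The change was 0.20 (SE 0.07, adjusted p = 0.200, or 0.0898 with the block). The knockdown held 419.8 and 457.0 FPKM, against 541.6 and 644.3 FPKM with the control siRNA, a change of -0.43 (SE 0.10) whose adjusted p was 0.0510, or 0.0172 with the block. Leaving out 1 library, that change ran from -0.56 without control siRNA replicate 1 (adjusted p = 0.0357) to -0.31 without control siRNA replicate 2, and the adjusted p reached 0.260 without knockdown replicate 1.

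The control siRNA libraries of SQSTM1 also stood above the untreated ones, which were at 393.2 and 418.7 FPKM. That change was 0.54 (SE 0.10, unadjusted p = 0.000262, adjusted p = 0.373), the largest relative to its error among the 10 genes for this pair of groups. The knockdown libraries lay closer to the untreated than to the control siRNA libraries. In that comparison limma called 0 of 10 genes and 0% of all genes, with 1 of 10 and 730 of all genes at an unadjusted p under 0.05. Exons of C5orf45 and MGAT4B on the opposite strand overlap 1582 and 105 bases of SQSTM1 exons, at means of 69.5 and 103.1 FPKM. C5orf45 changed by 0.49 (SE 0.14) for the control siRNA against untreated cells and by -0.49 (SE 0.14) for the knockdown against the control siRNA. The same changes of MGAT4B were 0.14 and -0.19 (SE 0.15 each). For S34F against WT C5orf45 changed by 0.05 (SE 0.10) and MGAT4B by 0.12 (SE 0.11). The part of either gene in the SQSTM1 values was not tested.

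Isoform usage was tested for 33 isoforms of the 10 genes. For S34F against WT 0 of 33 were called where 0.681% of all 41727 isoforms were, for the knockdown 0 of 33 where 0.129% were, for WT against the knockdown 0 of 33 where 0.273% were, and for the control siRNA against untreated cells 0 of 33 where 0.00959% were. At an unadjusted p under 0.05 limma had 3, 3, 3 and 2 of the 33 in these comparisons, and 5007, 4281, 4513 and 2145 of all isoforms. The smallest adjusted p among the 33 was 0.119, that of ENST00000444619 of ATG7. A single isoform made up most of MAP1LC3B (ENST00000268607, 87.0 to 95.2% of the gene), ATG3 (ENST00000283290, 70.9 to 91.9%), GABARAPL1 (ENST00000266458, 61.9 to 89.2%), ULK1 (ENST00000321867, 64.1 to 82.6%), SQSTM1 (ENST00000402874, 59.5 to 72.1%) and ATG5 (ENST00000369076, 51.0 to 73.9%). The next were a decay target in ATG3 (ENST00000496423, 1.83 to 21.1%), retained introns in SQSTM1 (ENST00000466342, 12.3 to 27.0%), in ULK1 (ENST00000540568, 8.25 to 18.7%, and ENST00000540647, 3.57 to 25.6%) and in ATG16L1 (ENST00000485623, 1.67 to 20.4%), and in ATG7 the coding ENST00000451830 (8.34 to 18.9%). These stretches of introns count in the gene levels given above.

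The replicate number was itself compared, as replicate 2 against replicate 1 over all groups, in the fit that holds the replicate term. It called 4 of 10, where 27.1% of all genes were called. Both shares were above those of every treatment comparison without the block, whose groups held fewer libraries and whose fits lacked that term. GABARAPL1 was lower in replicate 2 by -1.03 (SE 0.12, adjusted p = 0.000396) and in all 7 groups, ATG10 by -0.33 (SE 0.08, adjusted p = 0.0113) and in all 7 groups, and ATG3 by -0.19 (SE 0.05, adjusted p = 0.0259) and in all 7 groups. ULK1 was higher in replicate 2 by 0.40 (SE 0.08, adjusted p = 0.00579), in 6 of 7 groups. The call for ATG3 was lost when a library of the untreated or the v3 WT group was left out, with adjusted p of 0.0508 to 0.0753. What the replicate number stands for is not given in the labels.

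Beyond the 10 genes, 102 other genes of autophagy and its control were listed in 10 groups, of which 98 could be tested. For S34F against WT 1 of 98 rose and 1 fell, a share near the 1.85% of all genes called, with a median change of 0.05 over the 98 against 0.02 over all genes.

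For the knockdown 2 of 98 were called, where 2.85% of all genes were, and for WT against the knockdown 3 of 98, where 1.43% were. The knockdown lowered MTOR, the kinase that holds ULK1 off, to 10.2 ± 0.28 FPKM, against 16.2 ± 0.27 FPKM with the control siRNA (log2 -0.62, SE 0.14, adjusted p = 0.0388). It stood at 15.6 ± 0.72 FPKM in v1 WT and 15.2 ± 0.33 FPKM in v3 WT, above the knockdown (log2 0.55, SE 0.12, adjusted p = 0.0490). GLA, a lysosomal galactosidase, was at 166.0 ± 0.65 FPKM in the knockdown, against 122.1 ± 3.45 FPKM with the control siRNA (log2 0.44, SE 0.09, adjusted p = 0.0365). Untreated cells held 154.7 ± 8.40 FPKM of GLA, closer to the knockdown than to the control siRNA. With WT against the knockdown SESN2, a stress sensor that restrains MTOR signaling, rose to 10.3 ± 0.62 FPKM in v1 WT and 12.5 ± 1.62 FPKM in v3 WT, against 5.66 ± 0.44 FPKM (log2 0.89, SE 0.16, adjusted p = 0.0286). HEXA, a lysosomal enzyme subunit, rose to 74.3 ± 4.94 FPKM in v1 WT and 82.6 ± 0.18 FPKM in v3 WT, against 53.1 ± 6.01 FPKM in the knockdown (log2 0.56, SE 0.10, adjusted p = 0.0300). These 5 calls were each lost in 6 to 12 of the 14 fits that left out 1 library, every knockdown and WT library among them, with adjusted p of 0.0502 to 0.482. GLA was also not called after upper quartile scaling (0.0516), and MTOR against the knockdown neither then (0.0502) nor without the filter (0.0555), nor was SESN2 without the filter (0.0509).

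**Figure D5:**
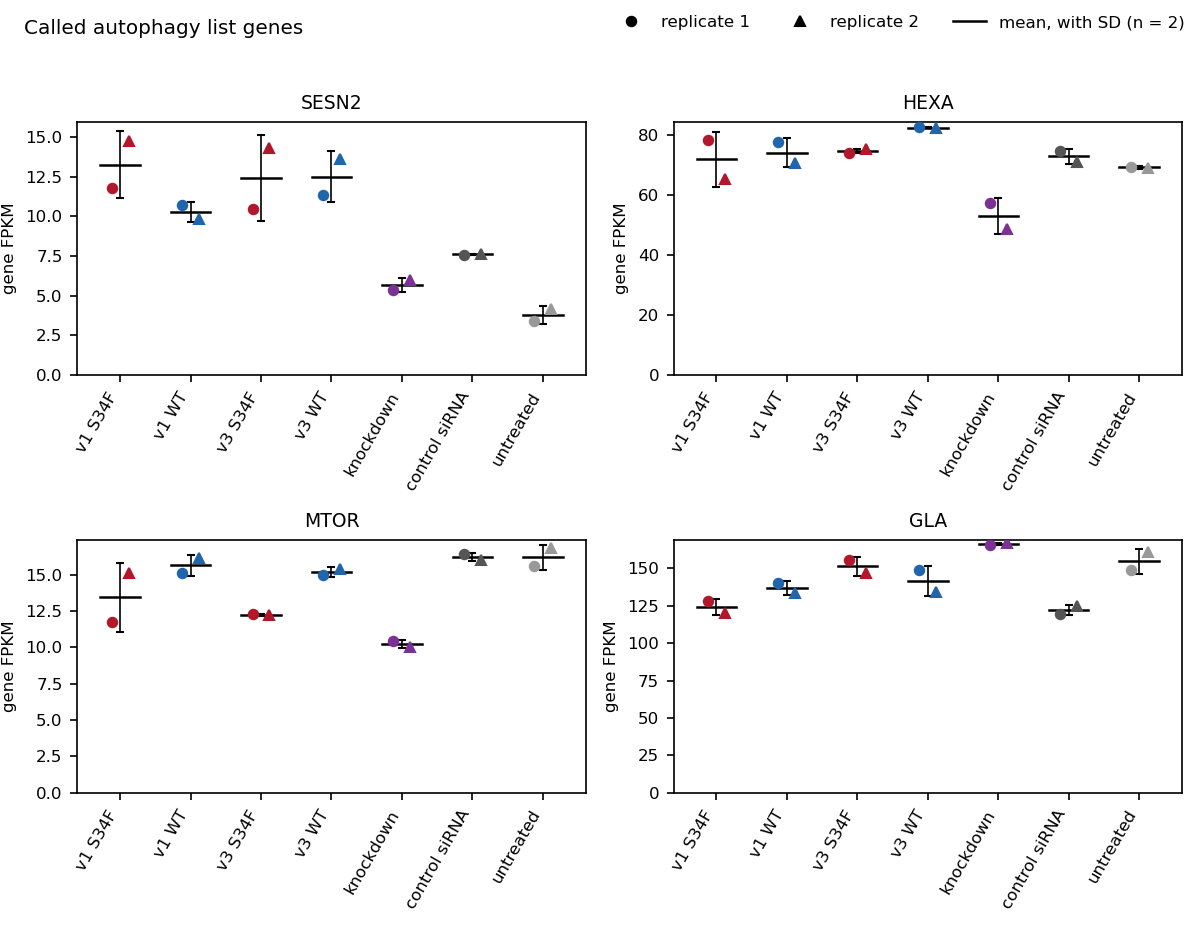
Gene level in FPKM (vertical axes, from 0) of the 4 genes of the autophagy lists called in a comparison with the knockdown, in the 7 groups, with circles for replicate 1, triangles for replicate 2 and lines for the mean and SD. MTOR, SESN2 and HEXA are lower in the knockdown than in the WT groups, and GLA is higher in the knockdown than with the control siRNA.

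By group, the lysosomal list had 1 of 20 genes called for the knockdown and 1 for WT against the knockdown. The list of upstream nutrient signaling had 1 and 2 of 15, and that of other E1-type and ubiquitin-like genes 0 and 0 of 7. In the ULK kinase complex (4 tested), the class III PI3-kinase complexes (7), the ATG9, ATG2 and WIPI proteins (7), the other LC3 and ATG12 conjugation genes (9), the autophagy receptors (10), autophagosome fusion (9) and the NRF2 targets (10), 0 were called by limma in these comparisons or for S34F against WT. With the replicate block 3 of the 98 rose and 4 fell for S34F against WT (background 7.98%), 5 rose and 9 fell with the knockdown (background 11.8%), and 5 rose and 0 fell for WT against the knockdown (background 7.52%). These shares lie near those of all genes. Among those added by the block for the knockdown were TAX1BP1, an autophagy receptor (log2 0.56, adjusted p = 0.00454), ATG2A, which moves lipid into the growing membrane (-0.72, 0.0116), and LAMP2, a protein of the lysosomal membrane (-0.63, 0.0212). For the control siRNA against untreated cells 0 of 98 were called, and the smallest p were those of SESN2 at 7.60 ± 0.0092 FPKM, against 3.78 ± 0.57 FPKM (log2 0.85, SE 0.18, adjusted p = 0.707), and of GLA at 122.1 ± 3.45 FPKM, against 154.7 ± 8.40 FPKM (log2 -0.34, SE 0.09, adjusted p = 0.822). Within v1 and within v3 0 of 98 were called, and with the block 1 rose and 1 fell in v1. For the difference between v3 and v1 0 of 98 were called, and VPS41 (0.39, unadjusted p = 0.0811) and TOLLIP (-0.46, unadjusted p = 0.104) had the smallest p.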

How the data were processed

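The 14 RNA-seq libraries were placed in 7 groups of 2 by their labels. The labels do not state whether replicates are separate cultures, and p-values thus cover only the spread between these samples, possibly a technical one. The submitters' processing notes name Trimmomatic 0.30, TopHat2 2.0.12 and GRCh37. For the quantifier, the annotation release and the strand setting, each is not given in the sources used here. The deposited tables give, per the file headers, an FPKM per isoform with confidence bounds, and a coverage signal per isoform, whose ratio to FPKM gave the relative depth.

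Gene FPKM was the sum over a gene's isoforms and usage an isoform's percent of it. limma 3.58.1 (R 4.3.3, trend) was fitted on log2(FPKM + 1), which understates changes of low genes, with 1 mean per group over 14 libraries (7 residual and 3.92 prior degrees of freedom). Genes needed a mean of at least 1 FPKM and estimates marked OK, which 14233 met, and BECN1 was left out by the second condition. Usage was tested for 41727 isoforms with a mean of 5 to 95%, 3′ ends for 31067 ends merged within 50 bases. Inclusion of 11407 cassette exons, with exons from GENCODE 29 (GRCh38) for 102613 of 116194 isoforms matched by identifier and length and a mean spanning FPKM of at least 1, was added after the data were seen, as were the comparison of replicate numbers, ATG10 without 1 isoform, and ATG7 as 3 isoforms. P-values were adjusted by Benjamini-Hochberg over all features of a comparison and called under 0.05. The code was tested on simulated data.

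Same-numbered replicates were checked for pairing: their deviations from group means correlated at 0.160 to 0.571 in all 21 pairs of groups, so a fit with the replicate number as a block stands beside results it changes. Other alternatives were a pseudocount of 0.1, no filter, upper quartile scaling, usage of 1 to 99%, an arcsine scale, and each library left out. All 10 members are named. Of the listed other genes those called are named, at most 10 a comparison, and otherwise the smallest p, except that the genes called for S34F against WT are not reported here. Of isoforms, those of at least 10% mean usage or called are named, along with a few scarce ones chosen after their values were seen. The members and lists were chosen with earlier results of these data known.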

Additional observations from a re-analysis of the deposited data

How the results depend on the processing

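The absolute read number is unknown, so no counting error was computed for the scarce ATG7 isoforms. The authors' confidence bounds are given above only for ENST00000444619. With 2 libraries a group, calls moved with single libraries. Of 1573 values of single genes, isoforms or exons under an alternative, 1458 kept their direction and side of the threshold. With the replicate block the genes called numbered 2 for the control siRNA, 1681 for the knockdown, 1070 for WT against the knockdown, 1136 for S34F, 309 in v1 and 69 in v3, and the members called 3 for the knockdown, 1 for WT against the knockdown, 2 for S34F and 1 in v1; 1 isoform was called for the control siRNA. Without the filter 19 genes were called for the control siRNA, 241 for the knockdown, 51 in v1, 21 in v3 and 15 for the v3 minus v1 difference. A pseudocount of 0.1 gave 1 gene for that difference and called 1 member with the knockdown, SQSTM1 (adjusted p = 0.0487). On the arcsine scale 0, 13 and 51 isoforms were called for the control siRNA, the knockdown and WT against the knockdown, and with usage of 1 to 99% it was 19, 197 and 307; cassette exons called on the arcsine scale were 31 and 68 for the knockdown and for WT against the knockdown. Leaving out each library in turn, genes called ran from 0 to 7 for the control siRNA, 15 to 377 for the knockdown, 5 to 165 for WT against the knockdown, 47 to 332 for S34F, 1 to 37 in v1, 2 to 7 in v3 and 0 to 6 for the difference. Members called ran from 0 to 1 for the knockdown and 0 to 1 for S34F. Isoforms called ran from 1 to 27, 5 to 59, 6 to 86 and 7 to 419 for the control siRNA, the knockdown, WT against the knockdown and S34F, and cassette exons from 23 to 74, 38 to 129 and 20 to 475 for the last 3. The only member cassette exons called in these fits, for WT against the knockdown or for S34F, lay in the 5′ part of ATG7. A 66-base form of the 109-base exon was among them, without v1 WT replicate 1. Its inclusion was 100% in v1 WT replicate 2, where the isoforms that span it summed to 1.6e-40 FPKM. That call thus rests on values of about 0.

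These log2 differences reversed, and the cause was not tested. With all libraries they lay between -0.15 and 0.19, except GABARAPL1 for the control siRNA, which was 0.54 and reversed without untreated replicate 2. Under upper quartile scaling the value of ATG12 for the control siRNA was 0.011 and that of ATG5 for replicate 2 against 1 was 0.0051. Without 1 library at a time the value for the knockdown ran, in ATG7, from -0.21 to 0.052, in ATG10 from -0.0099 to 0.34 and in MAP1LC3B from -0.11 to 0.48. For S34F it ran from -0.061 to 0.072 in ATG3 and -0.098 to 0.074 in ATG16L1. For WT against the knockdown it ran from -0.035 to 0.10 in ATG12 and -0.38 to 0.080 in ULK1. For the control siRNA it ran from -0.28 to 0.15 in ATG3, -0.39 to 0.17 in ATG10, -0.10 to 0.10 in ATG12, -0.28 to 0.12 in ATG16L1, -0.13 to 0.46 in MAP1LC3B, -0.10 to 1.18 in GABARAPL1 and -0.29 to 0.42 in ULK1. The v3 minus v1 difference of ATG7 ran from -0.19 to 0.16, and replicate 2 against 1 from -0.052 to 0.038 for ATG5 and -0.014 to 0.067 for ATG12. Without 1 library the S34F difference of ATG10 ran from -1.12 to -0.54 in v1 and -0.60 to -0.25 in v3. The replicate block changed no member call other than those given above.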
